A study of Mus musculus with 4 samples.

Results

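The genes described here are 42 DNA replication and S-phase genes, measured by RNA-seq in cultured mouse astrocytes. They were taken as a fixed list of gene symbols, matched exactly in the table of 25393 genes, and all 42 were found and passed the minimum mean level for the test. This list and the other gene lists below were chosen with earlier results of these data known. Their counts beside the shares of all genes are therefore a description and not a test. The 42 genes were sorted into 9 roles, from the MCM helicase to the checkpoint. The 4 libraries came from C57BL/6 pups at postnatal day 1, from untreated cells of cortex and hippocampus. The WT group held 2 libraries of wild type cells. The KO group held 2 libraries labelled tet1-/-, which the paper describes as a constitutive knockout, one meant to affect every cell of the animal. Cells of 2 mice went into an isolation, grew for about 7 days, were shaken at 260 rpm, and were kept for a further 24 h. The libraries were described as biological repeats, but the labels do not tie each to its own culture or animals, so every test below measures the spread between libraries, which may in part be technical.

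Before S phase, origins of replication are licensed when the origin recognition complex, Cdc6 and Cdt1 load the ring of Mcm2 to Mcm7 onto DNA. Cdc45, the GINS complex and Mcm10 then turn the loaded ring into a moving helicase, and primase, the replicative polymerases, the sliding clamp and its loader copy both strands behind it. Most of these genes are transcribed in waves by E2F factors as cells leave G1, so that their summed mRNA is widely used as a reading of how many cells of a culture are cycling. Astrocytes of newborn rodents divide in culture and slow down as the dish fills.

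The libraries held 18749610 and 22673555 reads on genes in WT, and 20702980 and 22403163 in the KO-labelled libraries. A level is given as a normalized read count, the reads divided by 1 size factor per library, or as FPKM where genes of different length are compared. Tet1, the targeted gene, had normalized read counts of 266 and 121 in WT and 173 and 463 in the KO-labelled libraries, and was therefore not lower in them. For this reason the groups are named by their labels throughout. The paper reported Tet1 mRNA as barely detectable in its KO astrocytes, and how those cells relate to these libraries is not given. The counts here are for the whole gene, so they do not show whether a deleted part is missing. Xist, transcribed from the inactive X of female cells, had normalized read counts of 8.54 and 0.92 in WT and 2896 and 13367 in the KO-labelled libraries. The 4 Y-linked genes summed to 3765 and 1909 in WT and to 0 and 830 in the KO-labelled libraries, so the sex make-up of the cultures differed between the labels and could not be told apart from them. Of the 9 astrocyte markers, Gfap stood at 58004 and 67297 normalized read counts in WT and at 174853 and 9945 in the KO-labelled libraries. The summed FPKM of the list was 1490, 1434, 2570 and 380 in the same order, of which Gfap alone gave 687, 765, 1871 and 117. The sum therefore follows Gfap more than the list. By gene, 5 of the 9 had the labels apart below WT, 1 had them apart above it and 3 overlapped.

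Of the 42 genes, 41 had a higher mean in the KO-labelled libraries, while 46.3% of the 22094 genes tested lay in that direction. The median log2 difference, labelled KO minus WT on log2(normalized read count + 1), was 0.98 over the list and -0.07 over all genes tested. Summed over the list, the level was 94.9 and 148 FPKM in WT and 177 and 284 FPKM in the KO-labelled libraries, or 0.0375%, 0.0581%, 0.069% and 0.112% of reads. For 29 genes both libraries labelled KO lay above both WT libraries, an arrangement that 22.5% of all genes showed. The opposite arrangement held for 0 members and for 25.4% of all genes, and in the other 13 members the labels overlapped.

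After adjustment over all genes, 0 of the 42 passed 0.05 in limma, as did 0.0% of all genes tested, and the adjusted p of the members ran from 0.218 (Rrm2) to 0.987 (Orc1). At an unadjusted limma p under 0.05, 17 members were higher and 0 were lower, against 4.54% and 9.18% of all genes. edgeR's quasi-likelihood test on the recovered reads called 0 members after adjustment and 12 at an unadjusted p under 0.05, all higher, against 4.23% of all genes higher by the same rule. Its log2 differences for the members with the fewest reads in WT replicate 1 were smaller than those of limma, 2.67 against 3.87 for E2f8, 2.45 against 3.16 for Clspn and 3.12 against 3.44 for Cdc6, and DESeq2 gave 2.70, 2.48 and 3.16. DESeq2 called 3 members higher after adjustment, Rrm2, Cdc6 and Mcm5, against 1.64% of its genes higher and 4.62% lower. With 2 libraries a label, the smallest two-sided p that an exact permutation test could give for any single gene was 0.333. Without WT replicate 1 or without labelled KO replicate 2, 0 members stayed under an unadjusted limma p of 0.05, with the median at 0.66 and 0.78.

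**Figure D1:**
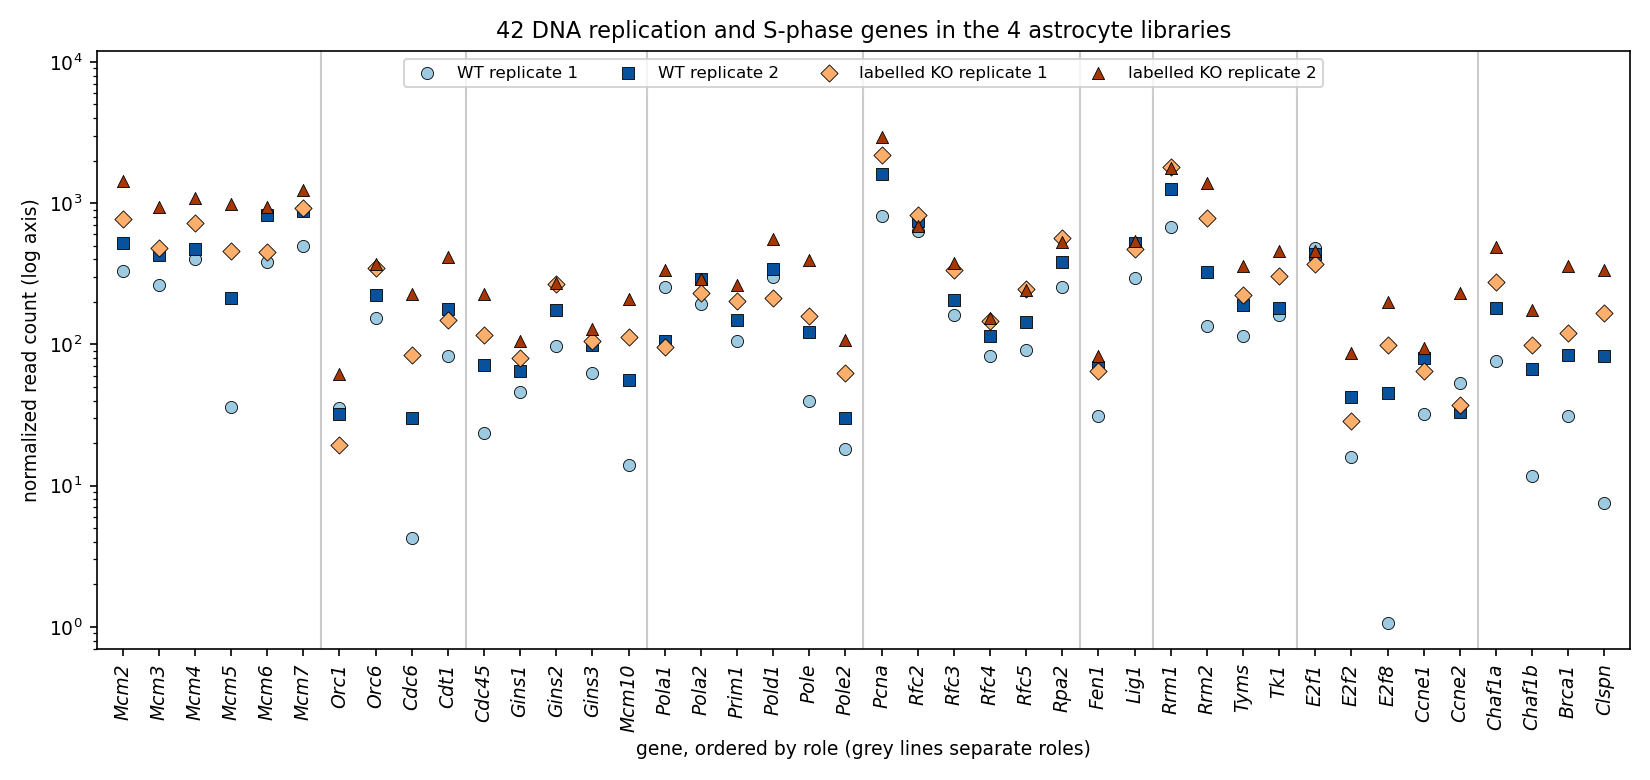
Normalized read count (log axis) of the 42 genes in the 4 libraries, with 1 symbol per library and genes ordered by role. WT replicate 1 is the lowest symbol for 37 genes and labelled KO replicate 2 the highest for 37.

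**Figure D2:**
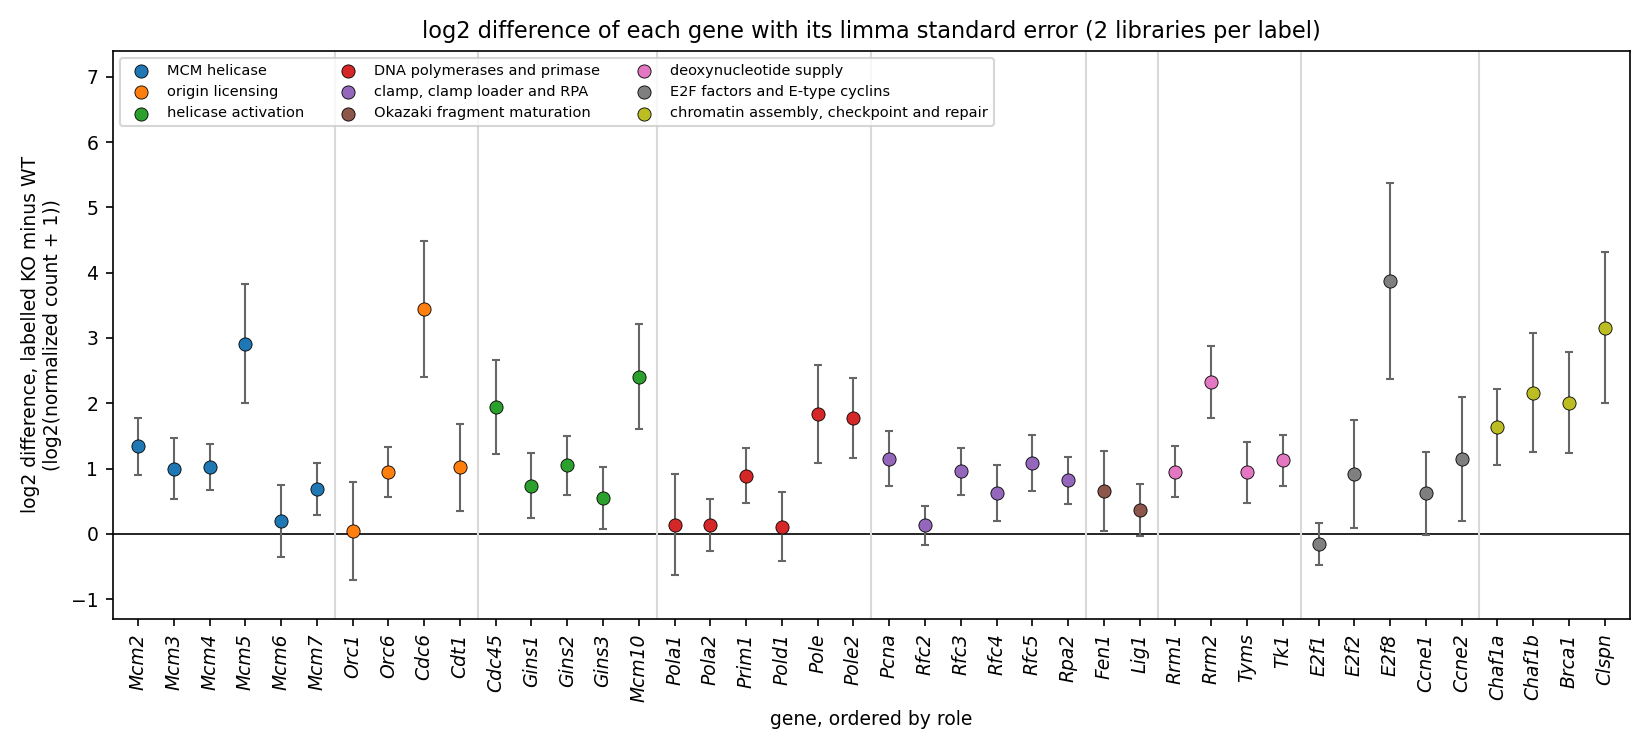
Log2 difference between labels for each of the 42 genes, with its limma standard error (2 libraries per label), coloured by role. All but E2f1 lie above 0, and E2f8 (3.87), Cdc6 (3.44), Clspn (3.16) and Mcm5 (2.91) are the highest here, while edgeR put Cdc6 (3.12) above E2f8 (2.67), Mcm5 (2.5) and Clspn (2.45).

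The MCM helicase genes encode the 6 subunits of the ring that unwinds DNA at the fork. All 6 were higher in the KO-labelled libraries, against 46.3% of all genes, with a median log2 difference of 1.01. In 5 of them both libraries labelled KO lay above both WT libraries, against 22.5% of all genes. Mcm5 (chromosome 8, 75109569 to 75128439, plus strand, mm10) had normalized read counts of 36.3 and 213 in WT and 455 and 990 in the KO-labelled libraries. Its log2 difference was 2.91 ± 0.91 (SE), with an adjusted p of 0.292 in limma and 0.0454 in DESeq2. The groups were apart, but WT replicate 1 lay far below the rest, with 34 reads against 232 in WT replicate 2. Mcm2, the subunit that also carries histones at the fork, stood at 329 and 525 in WT and at 776 and 1431 in the KO-labelled libraries (log2 difference 1.34 ± 0.44, limma adjusted p 0.313). Mcm4 went from 403 and 474 in WT to 721 and 1087 in the KO-labelled libraries, a log2 difference of 1.02 ± 0.35.

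Mcm6 (chromosome 1, 128331590 to 128359664, minus strand) was the subunit with overlapping labels. It had normalized read counts of 386 and 829 in WT and 452 and 934 in the KO-labelled libraries, so that both labels held a low and a high library. The log2 difference of Mcm6 was 0.20 ± 0.55, and it fell below 0 when WT replicate 1 (-0.35) or labelled KO replicate 2 (-0.32) was left out. Mcm3 and Mcm7 had log2 differences of 1.00 and 0.69.

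Since the 6 subunits enter the ring in equal numbers, their levels were also compared per length. The ratio of the highest to the lowest subunit in FPKM was 12.4 in WT replicate 1, 3.71 in WT replicate 2, 2.14 in labelled KO replicate 1 and 1.51 in labelled KO replicate 2. The lowest subunit was Mcm5 in both WT libraries and Mcm6 in both libraries labelled KO. Mcm5 stood at 0.11 and 0.404 of the median of the other subunits in WT, and at 0.885 and 0.997 in the KO-labelled libraries. Mcm6 lay the other way, at 1.17 and 1.56 in WT and at 0.752 and 0.805 in the KO-labelled libraries. In neither ratio did the labels overlap, but this was not particular to them. Mcm2 (0.571 and 0.571 in WT, 0.867 and 0.828 in the KO-labelled libraries) had the labels apart too. So did Mcm3 (0.852 and 0.86 against 1.13 and 1.0), while Mcm4 and Mcm7 overlapped. Each ratio also falls when the other subunits rise. These ratios were computed after the values had been seen and were not tested.

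**Figure D3:**
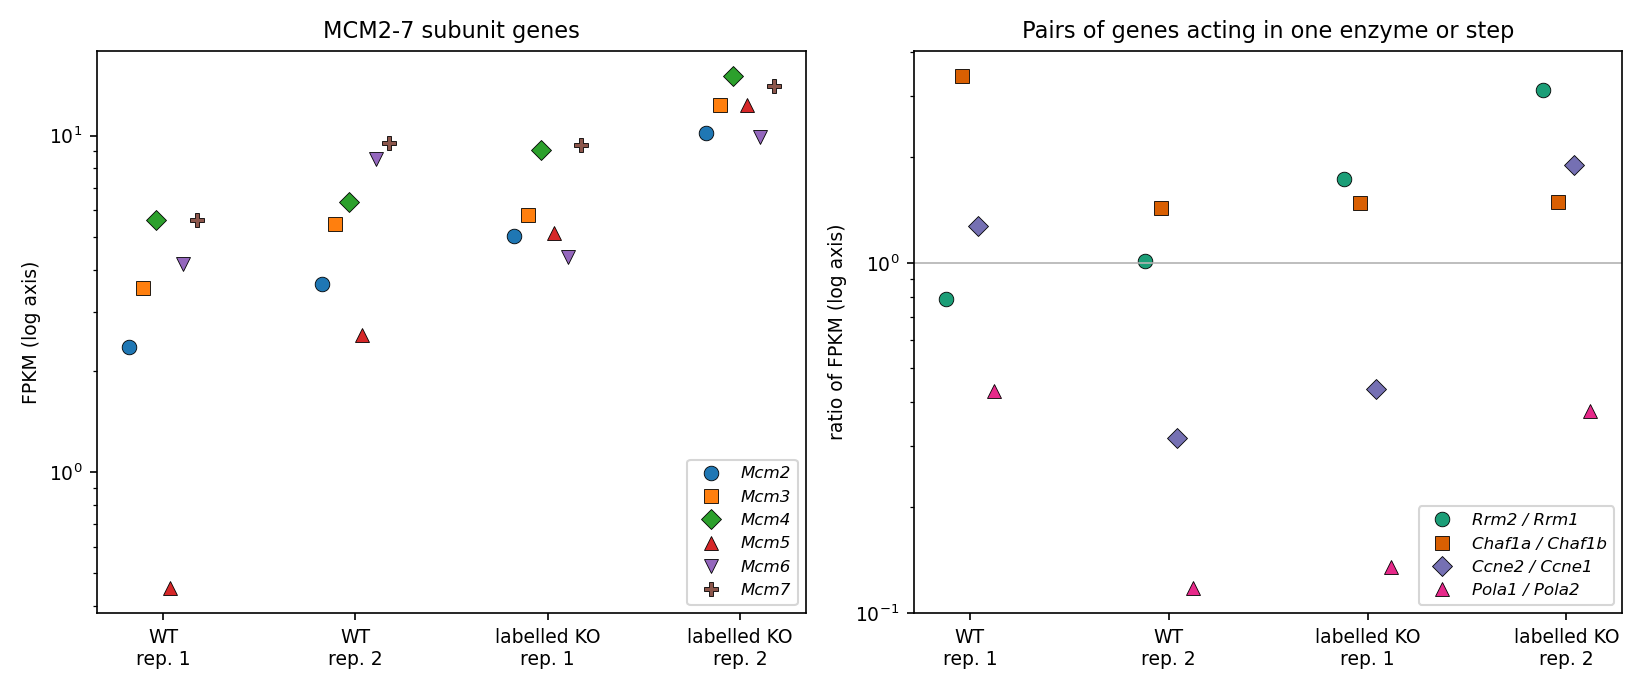
FPKM of the 6 MCM genes (left, log axis) and the FPKM ratio of 4 gene pairs (right, log axis, line at 1) in each library. The MCM genes spread over a 12.4-fold range in WT replicate 1 and a 1.51-fold range in labelled KO replicate 2.

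Promoter sequence was looked at because E2F sites are the shared feature these genes are best known for. RefSeq windows of 300 bases (250 before to 50 after the annotated start, GRCm38.p6) were found for 36 of the 42 genes. Gins1, Gins2, Rfc2, Mcm4, Pole and Ccne2 had no entry. The letters TTTCCCGC, TTTCGCGC, TTTGCCGC and TTTGGCGC, common forms of the E2F site, were searched on both strands, with overlapping matches counted separately. At least 1 of them stood in the windows of 15 of the 36 genes (41.7%), and in 2.60% of the 27025 genes of the table or 4.26% of the 12083 protein-coding genes that were tested here. The shorter motif CCAAT, read by NF-Y, stood in 61.1% of the members and 42.4% of the tested protein-coding genes, and the motif TTTGAA, a form of the CHR element of genes expressed late in the cycle, in 16.7% and 14.6%. Below are 4 stretches upstream of the RefSeq start, chosen because Mcm5 and Cdc6 were among the members with the highest log2 differences and Mcm6 and Pola1 among those with the lowest. They are written 5′ to 3′ on the strand of the gene, with the E2F letters in capitals. The Cdc6 stretch precedes the RefSeq start at 98908151 but lies within the gene as the deposited table gives it, from 98907801, where it overlaps 0 annotated exons.
Mcm5, plus strand, chr8:75109341-75109460: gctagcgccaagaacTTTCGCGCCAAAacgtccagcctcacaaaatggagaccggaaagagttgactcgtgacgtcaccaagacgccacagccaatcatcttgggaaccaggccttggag
Mcm6, minus strand, chr1:128359711-128359830: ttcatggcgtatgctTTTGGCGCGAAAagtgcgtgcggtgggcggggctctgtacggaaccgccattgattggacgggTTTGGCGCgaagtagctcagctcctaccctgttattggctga
Cdc6, plus strand, chr11:98907998-98908117: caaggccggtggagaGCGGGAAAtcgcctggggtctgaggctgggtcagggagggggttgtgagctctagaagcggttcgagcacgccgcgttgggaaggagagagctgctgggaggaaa
Pola1, minus strand, chrX:93632189-93632308: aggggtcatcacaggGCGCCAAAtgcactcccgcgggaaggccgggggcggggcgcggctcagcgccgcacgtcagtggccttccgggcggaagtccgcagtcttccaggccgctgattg

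In Mcm5 and in Mcm6 a run of 12 capitals holds overlapping matches on both strands, and Mcm6 has a further match closer to its start. The members with and without a match were then described by their difference between labels, with no test. The 15 genes with a match had a median log2 difference of 0.92, from 0.05 (Orc1) to 3.44 (Cdc6), and the 21 without one had 1.09, from -0.15 (E2f1) to 3.87 (E2f8). Of the 15, 8 had both libraries labelled KO above both WT libraries, as did 17 of the 21 and 22.5% of all genes. For CCAAT, the same held for 18 of 22 genes with the motif and 7 of 14 without it. A match is a match of letters only, and no binding was measured here.

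The origin licensing genes were 4: Orc1 and Orc6 of the origin recognition complex, and the loaders Cdc6 and Cdt1. Cdc6 (chromosome 11, 98907801 to 98923940, plus strand) had normalized read counts of 4.27 and 30.3 in WT and 84.6 and 226 in the KO-labelled libraries, from 4, 33, 79 and 251 reads. Every library labelled KO exceeded every WT library, and the log2 difference was 3.44 ± 1.04, with an adjusted p of 0.283 in limma and 0.0246 in DESeq2. Orc6 had 155 and 223 in WT and closer values, 348 and 372, in the KO-labelled libraries, with a log2 difference of 0.95 ± 0.38. Orc1, the largest subunit of the origin recognition complex, had normalized read counts of 35.2 and 32.2 in WT and 19.3 and 62.2 in the KO-labelled libraries. The 2 KO-labelled libraries lay on either side of WT, and its log2 difference was 0.05 ± 0.75. Cdt1 overlapped as well, with 83.2 and 177 in WT and 148 and 417 in the KO-labelled libraries.

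Helicase activation was covered by Cdc45, by Gins1, Gins2 and Gins3 of the GINS complex, and by Mcm10. All 5 had both libraries labelled KO above both WT libraries, against 22.5% of all genes. All 5 also ran in the order WT replicate 1, WT replicate 2, labelled KO replicate 1, labelled KO replicate 2, against 9.73% of all genes. Mcm10, which links the helicase to polymerase alpha, had normalized read counts of 13.9 and 56.1 in WT and 113 and 208 in the KO-labelled libraries (log2 difference 2.41 ± 0.80, limma adjusted p 0.314). Cdc45 showed 23.5 and 71.7 in WT and 116 and 228 in the KO-labelled libraries (1.95 ± 0.72). Gins1, Gins2 and Gins3, obligate partners in 1 complex, differed less, with log2 differences of 0.74, 1.05 and 0.55. Gins4, a subunit of the same complex placed among the other replication genes below, had overlapping labels. It had normalized read counts of 511 and 687 in WT and 719 and 428 in the KO-labelled libraries (log2 difference -0.09 ± 0.39). Its mean level was 20.8 FPKM, against 2.35 (Gins1), 2.37 (Gins2) and 1.76 (Gins3). Gins2 stood out for the closeness of its libraries labelled KO, 269 and 273, against 97.1 and 175 in WT.

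The DNA polymerases and primase divided into genes with apart and with overlapping labels. Pole, the catalytic subunit of the leading-strand polymerase, had normalized read counts of 39.5 and 122 in WT and 158 and 394 in the KO-labelled libraries (log2 difference 1.83 ± 0.75). Its partner Pole2 had 18.1 and 30.3 in WT and 63.2 and 108 in the KO-labelled libraries (1.77 ± 0.61). Prim1, the primase that starts each new strand, was at 105 and 149 in WT and 204 and 263 in the KO-labelled libraries (0.89 ± 0.42). For these 3 genes the labels were apart, with limma adjusted p-values between 0.323 and 0.427.

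In contrast, Pola1, Pola2 and Pold1 overlapped. Pola1, the catalytic subunit of polymerase alpha and the only member on the X chromosome (93304767 to 93632155, minus strand), had normalized read counts of 255 and 105 in WT and 96.3 and 337 in the KO-labelled libraries. Each label thus held a high and a low library, and the log2 difference was 0.14 ± 0.77. Pold1, the catalytic subunit of the lagging-strand polymerase, was at 300 and 342 in WT and 214 and 557 in the KO-labelled libraries (0.11 ± 0.53). Pola2, with 193 and 291 in WT and 233 and 292 in the KO-labelled libraries, differed least between libraries. Leaving out labelled KO replicate 2 put these 3 below 0, at -0.76, -0.58 and -0.02.

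The clamp and its loader follow. Pcna, the sliding clamp that holds polymerases on DNA (chromosome 2, 132249162 to 132253314, minus strand), was the most abundant member, with a mean of 37.6 FPKM, above 94.5% of listed genes. It had normalized read counts of 816 and 1600 in WT and 2181 and 2936 in the KO-labelled libraries, a log2 difference of 1.15 ± 0.42 (limma adjusted p 0.345). Pcna was thus higher in both libraries labelled KO than in either WT library. Rfc3, Rfc4 and Rfc5, small subunits of the loader that opens the clamp, had log2 differences of 0.96, 0.63 and 1.09, each with the labels apart. The exception was Rfc2, a subunit of the same loader, at 631 and 750 in WT and 821 and 694 in the KO-labelled libraries (0.13 ± 0.30). In FPKM, Rfc2 stood at 2.23 and 2.10 times the median of Rfc3, Rfc4 and Rfc5 in WT and at 1.39 and 1.09 times in the KO-labelled libraries. Rpa2, of the complex that coats single-stranded DNA, was at 254 and 382 in WT and 566 and 535 in the KO-labelled libraries (0.82 ± 0.36).

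For Okazaki fragment maturation the list held Fen1, the nuclease that trims the flap between fragments, and Lig1, the ligase that seals them. Fen1 had normalized read counts of 30.9 and 69.0 in WT and 65.3 and 82.9 in the KO-labelled libraries, and Lig1 had 296 and 520 against 476 and 541. Both overlapped, because WT replicate 2 lay above labelled KO replicate 1, and their log2 differences were 0.66 ± 0.61 and 0.37 ± 0.40.

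The 4 genes of deoxynucleotide supply were all higher, against 46.3% of all genes. In all 4 the libraries labelled KO lay above both WT libraries, against 22.5% of all genes. Rrm2 (chromosome 12, 24708241 to 24714146, plus strand), the subunit of ribonucleotide reductase made in S phase, had normalized read counts of 134 and 323 in WT and 788 and 1389 in the KO-labelled libraries. Its log2 difference of 2.32 ± 0.55 had the lowest adjusted p of the list in limma (0.218), and DESeq2 gave 0.00851. Rrm1, the large subunit of the same enzyme, was at 676 and 1267 in WT and 1803 and 1775 in the KO-labelled libraries (0.95 ± 0.39). The Rrm2 to Rrm1 ratio in FPKM was 0.79 and 1.01 in WT and 1.74 and 3.11 in the KO-labelled libraries. Tk1, thymidine kinase of the salvage route, showed 162 and 180 in WT and 307 and 460 in the KO-labelled libraries (1.13 ± 0.39). Tyms, which makes thymidylate anew, showed 114 and 190 against 223 and 361 (0.94 ± 0.47).

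Among E2F factors and E-type cyclins, 1 of 5 genes, E2f8, had both libraries labelled KO above both WT libraries. This share is near the 22.5% of all genes. E2f8 (chromosome 7, 48866429 to 48881596, minus strand), an atypical E2F that represses other E2F targets late in S phase, had normalized read counts of 1.07 and 45.1 in WT and 99.5 and 201 in the KO-labelled libraries. WT replicate 1 held 1 read and WT replicate 2 held 49, a gap of 4.48 on the log2 scale that exceeded the difference between labels, 3.87 ± 1.5 (limma adjusted p 0.358) or 2.67 in edgeR. Without WT replicate 1 the log2 difference of E2f8 was 1.63.

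E2f1, the activator at the head of the programme (chromosome 2, 154559407 to 154569892, minus strand), was the only member with a lower mean in the KO-labelled libraries. It had normalized read counts of 480 and 434 in WT and 369 and 456 in the KO-labelled libraries, with a log2 difference of -0.15 ± 0.32, and the labels overlapped. E2f2, another activator, was at 16.0 and 42.3 in WT and 28.9 and 87.4 in the KO-labelled libraries. The E-type cyclins, which drive entry into S phase with Cdk2, were not alike. Ccne1 had 32.0 and 80.0 in WT and 65.3 and 93.7 in the KO-labelled libraries, whereas Ccne2 had 53.3 and 33.1 in WT and 37.5 and 233 in the KO-labelled libraries. For Ccne2 (log2 difference 1.14 ± 0.95) the difference was carried by labelled KO replicate 2, and without that library it was -0.16.

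The chromatin assembly, checkpoint and repair genes had the highest median of the 9 roles, 2.09. The libraries labelled KO lay above WT in 4 of 4, against 22.5% of all genes. Clspn (chromosome 4, 126556935 to 126593903, plus strand), which relays the alarm of a stalled fork to Chk1, had normalized read counts of 7.47 and 82.8 in WT and 167 and 337 in the KO-labelled libraries (log2 difference 3.16 ± 1.15, limma adjusted p 0.344). The WT libraries of Clspn lay farther apart (3.31 on the log2 scale) than the labels. Chaf1a and Chaf1b, subunits of the factor that places histones on new DNA, had log2 differences of 1.64 ± 0.58 and 2.16 ± 0.91. In FPKM, Chaf1a stood at 3.41 times Chaf1b in WT replicate 1 and at 1.43, 1.48 and 1.49 times in WT replicate 2 and the KO-labelled libraries. Brca1, which protects stalled forks and repairs breaks, was at 30.9 and 84.6 in WT and 121 and 361 in the KO-labelled libraries (2.01 ± 0.77).

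The libraries of 1 label differed from each other in these genes by nearly as much as the labels did. WT replicate 2 lay above WT replicate 1 for 38 of 42 members, against 52.6% of all genes, and labelled KO replicate 2 above labelled KO replicate 1 for 38, against 52.3%. The median of those differences was 0.77 in WT and 0.73 in the KO-labelled libraries on the log2 scale, and over all genes tested it was 0.04 and 0.06. Between the 2 nearest libraries of different labels, labelled KO replicate 1 minus WT replicate 2, the median of the members was 0.45. Between the farthest 2, labelled KO replicate 2 minus WT replicate 1, it was 1.49. WT replicate 1 was the lowest of the 4 libraries for 37 members (25.4% of all genes), and labelled KO replicate 2 the highest for 37 (30.8%). The 4 libraries ran in the order WT replicate 1, WT replicate 2, labelled KO replicate 1, labelled KO replicate 2 for 26 members, against 9.73% of all genes.

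These differences within a label had their own distribution over the roles. Between the KO-labelled libraries, the median was 1.45 for origin licensing, 1.04 for the polymerases and primase and 0.03 for the clamp, its loader and Rpa2. Ccne2 (2.61), Pola1 (1.80), Orc1 (1.64) and Brca1 (1.57) had the widest gaps there, while Rfc2 (-0.24), Rpa2 (-0.08), Rfc5 (-0.02) and Rrm1 (-0.02) were slightly lower in labelled KO replicate 2. Between the WT libraries, the median was 1.92 for chromatin assembly, checkpoint and repair and 0.53 for the clamp, its loader and Rpa2. Pola1 (-1.27), Ccne2 (-0.67), E2f1 (-0.15) and Orc1 (-0.13) were the 4 members that were lower in WT replicate 2. GC content differed in its relation to the libraries: over the 12848 genes with a GC value and a mean of at least 50, Spearman's rho of GC content was -0.26 with the difference between the KO-labelled libraries and 0.40 with that between the WT libraries. Over the 40 members of that level it was 0.00 and 0.21, a description across genes that share the same libraries, and its part in the results was not tested.

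**Figure D4:**
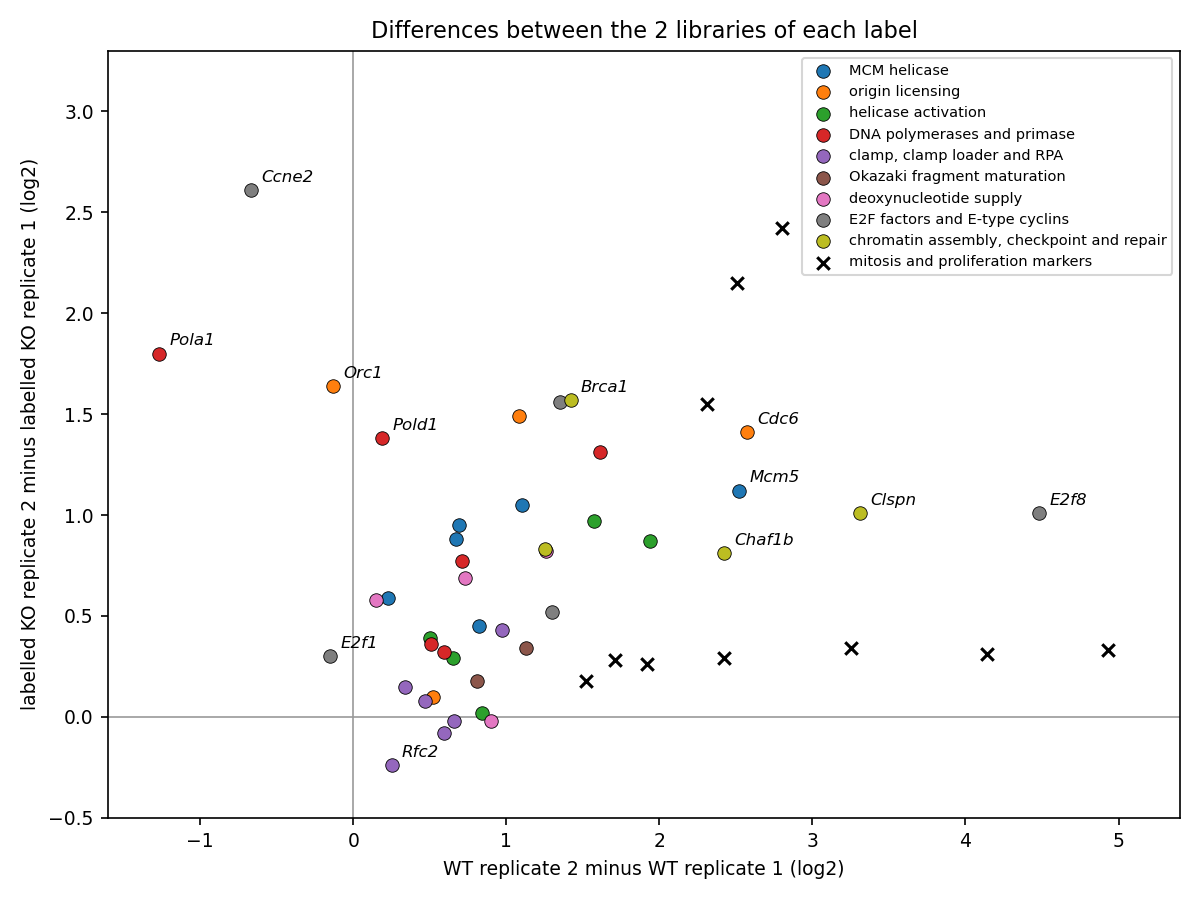
Log2 difference between the libraries of a label for each of the 42 genes (circles, coloured by role) and 10 mitosis and proliferation markers (crosses), WT on the horizontal and labelled KO on the vertical axis. Most genes lie above 0 on both axes, and 38 members do so on each.

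Of 65 other replication genes, a list of pathway genes outside the 42, 55 were higher in the KO-labelled libraries, against 46.3% of all genes. Their median log2 difference was 0.60. At an unadjusted limma p under 0.05, 12 were higher and 0 were lower, against 4.54% and 9.18% of all genes. After adjustment 0 passed in limma, and DESeq2 called 2 higher, against 1.64% of its genes. The labels were apart with KO-labelled libraries above in 42 and below in 4, against 22.5% and 25.4% of all genes. Of those with a mean of at least 50, the 3 highest log2 differences were those of Ticrr, a factor needed for origin firing (2.95 ± 1.02), E2f7, the atypical E2F that pairs with E2f8 (2.90 ± 0.80), and Asf1b, a histone chaperone (2.87 ± 1.27). E2f7 had normalized read counts of 9.6 and 42.3 in WT and 139 and 180 in the KO-labelled libraries. The 3 lowest were Rbl2, a pocket protein that holds E2F targets silent in resting cells, Mcm9, an MCM relative outside the Mcm2 to Mcm7 ring, and Samhd1, which breaks down deoxynucleotides. Rbl2 had 1842 and 1841 in WT and 1415 and 647 in the KO-labelled libraries (-0.94 ± 0.44, limma adjusted p 0.422), Mcm9 had 462 and 326 against 219 and 248, and Samhd1 had 2115 and 2751 against 1810 and 1715. For these 3 the KO-labelled libraries lay below WT.

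Mitosis and proliferation markers lay in the same direction, and farther. All 10 had both libraries labelled KO above both WT libraries, against 22.5% of all genes, with a median log2 difference of 3.43. DESeq2 called 7 of them higher, against 1.64% of its genes, while limma called 0 after adjustment. Mki67, present in cycling cells, had normalized read counts of 10.7 and 80.0 in WT and 203 and 1091 in the KO-labelled libraries (3.94 ± 1.20, limma adjusted p 0.284). Top2a, which untangles replicated DNA, had 88.6 and 442 in WT and 818 and 2405 in the KO-labelled libraries (2.82 ± 0.90). Between the WT libraries the median of the 10 was 2.46, above the 0.77 of the replication genes, and between the KO-labelled libraries it was 0.32, below their 0.73. The difference between these lists was not tested.

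Markers of some other cell types differed between the labels as well. All 12 microglia markers were lower in the KO-labelled libraries, 11 with the labels apart, and their summed level was 40.8 and 83.2 FPKM in WT and 5.83 and 3.12 FPKM in the KO-labelled libraries. Of the defining microglial genes, P2ry12 was low in every library, with 6 and 5 reads in WT and 0 and 1 in the KO-labelled libraries, and Tmem119, with 2 and 42 against 8 and 2, overlapped. Csf1r kept 33 and 49 reads in the KO-labelled libraries, against 164 and 520 in WT. The WT library with more microglial RNA, WT replicate 2, was also the WT library with the higher replication genes. The neural progenitor list of 7 genes summed to 1213 and 1560 FPKM in WT and 1697 and 1677 FPKM in the KO-labelled libraries. Most of each sum was Vim, with 862 and 1170 FPKM in WT and 1355 and 1175 FPKM in the KO-labelled libraries, and its labels overlapped. By gene, 5 of 7 were higher. The labels were apart above WT for 1 (Nes, 71.2 and 107 against 148 and 347 FPKM). They were apart below it for 1 (Sox2, 254 and 264 against 164 and 138 FPKM). Of the 9 astrocyte markers, 5 had the labels apart below WT and 1, Gja1, above it, and all but Gja1 were lowest in labelled KO replicate 2, the library with the highest replication genes. Of the remaining lists, the oligodendrocyte lineage had 3 of 8 genes higher, fibroblasts and meninges 4 of 7 and endothelial cells 2 of 5. These shares lie near the 46.3% of all genes tested that were higher. Neurons had 6 of 8 tested genes higher and ependymal cells 0 of 5. Over all genes tested, the labels were apart above WT for 22.5% and below WT for 25.4%. The part of these lists in the results was not tested. In bulk RNA, more cycling cells and more mRNA per cycling cell cannot be told apart.

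By level, Pcna was followed by Rrm2 (mean 11.4 FPKM), Mcm7 (9.62) and Mcm4 (9.01). At the low end were Mcm10 (0.612), Orc1 (0.521) and E2f2 (0.433), and 10 of the 42 genes had a mean under 1 FPKM. The members lie on 14 chromosomes, and 22 overlap another annotated gene, 14 of them a protein-coding one. Whether reads were counted by strand is not given in the sources used here, so for those 22 the reads of the overlapping gene may be included.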

How the data were processed

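RNA-seq libraries of primary astrocytes were grouped by the genotype and replicate number in the sample labels. Paired-end reads were quality filtered and mapped to mm10 by the authors, and the counting program is not given in the sources used here. The table of the authors, named for FPKM, holds a signal value for each gene in each library. Each deposited value is the gene's read count over the size factor of its library (0.937 and 1.087 in WT, 0.934 and 1.109 in the KO-labelled libraries), since 100% of them came within 0.01 of whole multiples of 1 read, and whole reads were recovered for 25393 genes. The planned test, one for normalized values on a log scale, was kept for them. The authors' deposited means per genotype, log2 fold changes and p-values were not used.

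The labels were compared on log2(value + 1) in limma 3.58.1 (R 4.3.3), by lmFit followed by eBayes with its trend option and without a block. The 22094 genes whose mean reached 1 were tested, and p-values were adjusted over them by Benjamini-Hochberg. On this scale the added 1 draws genes with few reads toward 0, while the mean of logs gives a low library more weight than a ratio of means does, so that some low genes differ more here than in the count models. The recovered reads of the same genes also went through the quasi-likelihood test of edgeR 4.0.16 and through DESeq2 1.42.0. DESeq2 gave an adjusted p for 17382 of them. FPKM was computed from recovered reads with the deposited lengths and each library's sum of reads. A count of 3 reads corresponds to 2.70 to 3.21 normalized counts. The scripts were checked on simulated counts. Alternatives were pseudocounts of 0.1 and 5, a mean minimum of 10 or none, equal sums, TMM, quantile normalization, eBayes with the trend off, the replicate block, FPKM, each library left out, edgeR and DESeq2. Members with a mean of at least 50 alone were an alternative chosen after seeing the data. The members and gene lists were chosen with earlier results of these data known. Named genes were all members by role, Tet1, Mki67, Top2a, and the 3 highest and 3 lowest of the other replication genes whose mean reached 50, and defining genes of the cell type markers. Xist and the Y-linked genes were added to check the libraries, and the marker genes printed were picked after their values were seen. Positions come from the deposited table and equal those of GENCODE M21 for 41 members (not for Pola2), and promoters are RefSeq sequences of GRCm38.p6. The plan did not take the replicate numbers as a pairing. Over all genes tested, same-numbered libraries deviated from their label means with a correlation of -0.0842. This does not exclude a factor shared by same-numbered libraries in the members, of which 38 were higher in replicate 2 in each label. The replicate block was therefore kept as an alternative.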

Additional observations from a re-analysis of the deposited data

How the results depend on the processing

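Over 16 alternatives, 660 of 672 log2 differences of single members kept their sign, and 34 of the 42 members kept it in every alternative. The changed mean minimum, eBayes with the trend off and the replicate block cannot alter a member's log2 difference. Their agreement in sign was therefore fixed in advance. The reversals beyond rounding came from leaving out a library. With equal sums Orc1 lay at -0.0, against 0.05 as reported. Across the 4 libraries left out in turn, the log2 difference ran from -0.35 to 0.75 for Mcm6, -0.15 to 0.43 for Pola2, -0.03 to 0.78 for Lig1, -0.03 to 1.26 for Ccne1, -0.77 to 0.87 for Orc1, -0.76 to 1.04 for Pola1, -0.58 to 0.80 for Pold1, -0.16 to 2.45 for Ccne2 and -0.05 to 1.36 for Tet1. The members higher at an unadjusted limma p under 0.05, 17 as reported, numbered 0 to 9 with a library left out (0 without WT replicate 1 and without labelled KO replicate 2, 9 without WT replicate 2, 7 without labelled KO replicate 1), 5 by eBayes without a trend and 9 on FPKM, and the other replication genes, 12 as reported, numbered 0 to 18 with a library left out, 7 without a trend, 6 on FPKM and 20 after quantile normalization. With 1 library left in a label, that library was assumed to vary like the other label. DESeq2 called 1088 genes and 3 members after adjustment, where limma and edgeR called 0 of each. With the replicate block 14 members were higher at an unadjusted limma p under 0.05, and no adjusted call changed. The median, which the block cannot alter, was 0.98. The median log2 difference of the members lay between 0.66 and 1.28 over all alternatives. The added alternative, members with a mean of at least 50, kept 40 genes, all 17 of these calls and a median of 1.01. The widest standard errors of the list were those of Cdc6, E2f8 and Clspn, which had 4, 1 and 7 reads in WT replicate 1. Few reads there were not the only source of low precision. Ccne2 and Pola1 had standard errors of 0.95 and 0.77 with 50 and 239 reads in that library.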
